A study of Mus musculus with 12 samples.

Results

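Cytosolic ribosomal proteins are the protein parts of the ribosome that translates nuclear-encoded mRNAs. The set held the genes whose symbol is Rpl or Rps with a number and at most the letters a, x, y or l, and the stalk and laminin-receptor proteins Rplp0, Rplp1, Rplp2 and Rpsa. A probe set counted when the platform annotation named exactly 1 such gene, and one gene with such a symbol was left out by the rule. This gave 98 probe sets of 45101, for 45 genes (23 of the large and 22 of the small subunit). Of these, 89 probe sets and 43 genes passed the filter on low signals, among 30304 probe sets and 14316 genes that passed in all. The rule uses no measured value.

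The study compared ischemic kidneys of mice with and without Toll-like receptor 4 (TLR4), a receptor for bacterial lipopolysaccharide and for molecules released by injured tissue. Whole-kidney total RNA of 12 male mice aged 8 weeks was measured, with 3 mice in each of 4 groups. TLR4 null ischemic kidneys came from C57BL/10ScNJ mice (TLR4-/-), in which the left renal pedicle was clamped for 23 min and released for 4 h. TLR4 null sham kidneys came from the same strain with the clip laid under the pedicle. WT ischemic and WT sham kidneys came from C57BL/10 mice after the same operations. All 12 mice, sham included, lost the right kidney. The allele is a germline loss carried by a substrain, so TLR4 and any other substrain difference cannot be told apart.

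Ribosomal proteins join ribosomal RNA in the nucleolus to form the large and small subunits, and cells make them in step with one another. Their mRNAs are abundant and long-lived, and most begin with a C followed by an unbroken run of pyrimidines, the 5' terminal oligopyrimidine (TOP) motif. Through that motif the kinase mTORC1 and the protein Larp1 set how much of each mRNA is translated, often with little change in the amount of mRNA.

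The sequences around the transcription starts are shown because a TOP motif would lie there. Printed are 4 of the 6 genes that changed after ischemia (Rps6, Rpl12, Rps27 and Rps2), a gene whose probe sets disagreed (Rps9), one of the brightest members (Rpl38) and a paralog of striated muscle (Rpl3l). Each run is 60 bases of RefSeq sequence (GRCm38.p6), with 40 bases before the annotated start and 20 from it on. Capitals mark the longest unbroken run of C and T, and both runs where 2 are equally long. The starts of Rps9, Rpl38 and Rps2 lie 87, 762 and 1942 bases inside the outer edge of their gene records, and the other 4 lie at the edge.
Rps6, chr4:86857348-86857407, minus strand: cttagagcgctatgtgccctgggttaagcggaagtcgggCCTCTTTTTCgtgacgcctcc
Rpl12, chr2:32961672-32961731, plus strand: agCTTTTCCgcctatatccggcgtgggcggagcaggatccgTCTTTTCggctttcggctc
Rps27, chr3:90213629-90213688, minus strand: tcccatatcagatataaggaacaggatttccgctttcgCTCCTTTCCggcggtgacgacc
Rps2, chr17:24720023-24720082, plus strand: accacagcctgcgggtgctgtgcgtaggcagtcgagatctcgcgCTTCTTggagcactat
Rps9, chr7:3704001-3704060, plus strand: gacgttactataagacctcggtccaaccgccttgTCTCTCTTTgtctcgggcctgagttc
Rpl38, chr11:114668540-114668599, plus strand: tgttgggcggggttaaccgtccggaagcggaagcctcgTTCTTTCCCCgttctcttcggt
Rpl3l, chr17:24727786-24727845, plus strand: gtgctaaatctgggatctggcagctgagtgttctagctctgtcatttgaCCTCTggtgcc

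In Rps6 and Rpl38 a run of 10 pyrimidines spans the annotated start, and in Rps9 and Rps27 a run of 9. Rpl12 holds 2 runs of 7, one upstream and one over bases 2 to 8 counted from the start as base 1. The longest run in Rps2 has 6 bases and that in Rpl3l 5. RefSeq promoter entries were found for 39 of the 45 genes, with 47 starts, of which 32 lie at the outer edge of the gene record. A run of at least 8 pyrimidines within 20 bases on either side of the start was found at 18 of the 47 starts (38.3%), against 15.8% of 21216 starts of other protein-coding genes. CCGGAAG, the core recognised by ETS transcription factors, was found on either strand of the 300 bases around 19 of the 47 starts (40.4%), against 11.5% of the others. Its opposite-strand form CTTCCGG can share letters with a pyrimidine run. It was present at Rps6, Rps2 and Rpl38, and not in the windows of Rps9, Rps27, Rpl12 or the Rpl3l start shown. TATAAA, read on the gene's strand in the 40 bases before the start, was found at 0 of 47 starts and at 2.84% of the others. These matches describe letters in fixed windows, and starts of 1 gene share much of their sequence.

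Values are MAS5 signals, the linear brightness of a probe set. Every array has the same trimmed mean, as read from the values. On such a common scale every value is relative to the rest of its array. Fewer ribosome-rich cells and less RNA per cell therefore cannot be told apart, and a change of all mRNAs together would not show. Median signals per array lay between 61.3 and 77.6, and arrays of 1 group correlated at 0.963 to 0.979. Of 4 Tlr4 probe sets, 1 read 0.901 to 3.38 in the 6 TLR4 null arrays, against 65.6 to 120.4 in the 6 WT arrays, and another 6.33 to 60.4 in TLR4 null, against 72.9 to 134.8 in WT arrays. In sham kidneys the first was lower in TLR4 null (limma, adjusted p = 0.00738) and the second did not pass (0.556). The other 2 were under the filter, with signals that overlapped between genotypes. All 7 measured kidney markers passed the filter, with Umod, made by the thick ascending limb, at 16365 or more on each array. The 3' over 5' ratio of the actin control probe sets averaged 1.89 ± 0.103 in the ischemic arrays and 1.78 ± 0.0606 in the sham arrays (SD, n = 6 each; exact permutation test, two-sided, p = 0.0519, 0.311 after adjustment over 6 tests).

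Few ribosomal protein genes changed after ischemia, and most differences were small. With 1 probe set standing for each gene, 3 of 43 rose in TLR4 null kidneys (Rpl12, Rps27 and Rps2) and none fell, at an adjusted p under 0.05 over all genes (limma). Over all 14316 genes 9.86% rose and 11.7% fell in that comparison. In WT kidneys 3 of 43 rose (Rpl12, Rpl10a and Rps19) and 1 fell (Rps6), against 9.18% and 10.5% of all genes. Without adjustment, 5 of 43 members in TLR4 null and 6 in WT kidneys had a limma p under 0.05. Over all 14316 genes the counts were 4738 in TLR4 null and 4513 in WT kidneys. Values are log2(signal + 15), so a difference of 1 is a doubling, and low signals are understated.

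The median log2 difference over the 43 genes was 0.020 in TLR4 null kidneys (-0.0020 with array weights), with 26 of 43 above 0, and 0.098 in WT kidneys, with 37 of 43 above 0. The medians over all genes were -0.072 in TLR4 null and -0.088 in WT kidneys. The large subunit (22 genes) had medians of 0.026 in TLR4 null and 0.099 in WT kidneys, and the small subunit (21 genes) 0.0053 in TLR4 null and 0.091 in WT kidneys. For the 35 members with a probe set over a mean signal of 1000, differences ran between -0.21 and 0.48 in TLR4 null kidneys and between -0.42 and 0.33 in WT kidneys. The 2253 other genes of that brightness ran between -2.35 and 6.80 in TLR4 null and between -2.22 and 5.66 in WT kidneys, and 403 of them rose and 596 fell in TLR4 null, 389 rose and 466 fell in WT kidneys.

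The data bound these differences more tightly than those of most genes. The 95% interval of the log2 difference lay wholly within 0.5 of 0 for 35 of 43 members (81.4%) in TLR4 null and for 34 (79.1%) in WT kidneys, against 30.1% and 31.1% of all genes in the same comparisons. Among members over a signal of 1000 this held for 33 of 35 (94.3%) in each genotype, against 55.3% of the other genes of that brightness in TLR4 null and 61.1% in WT kidneys. The median standard error was 0.085 for the members and 0.17 for all genes. Over a signal of 1000 it was 0.083 for the members and 0.097 for the other genes. An interval within 0.5 of 0 depends on the size of the difference as well as on this error.

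**Figure D1:**
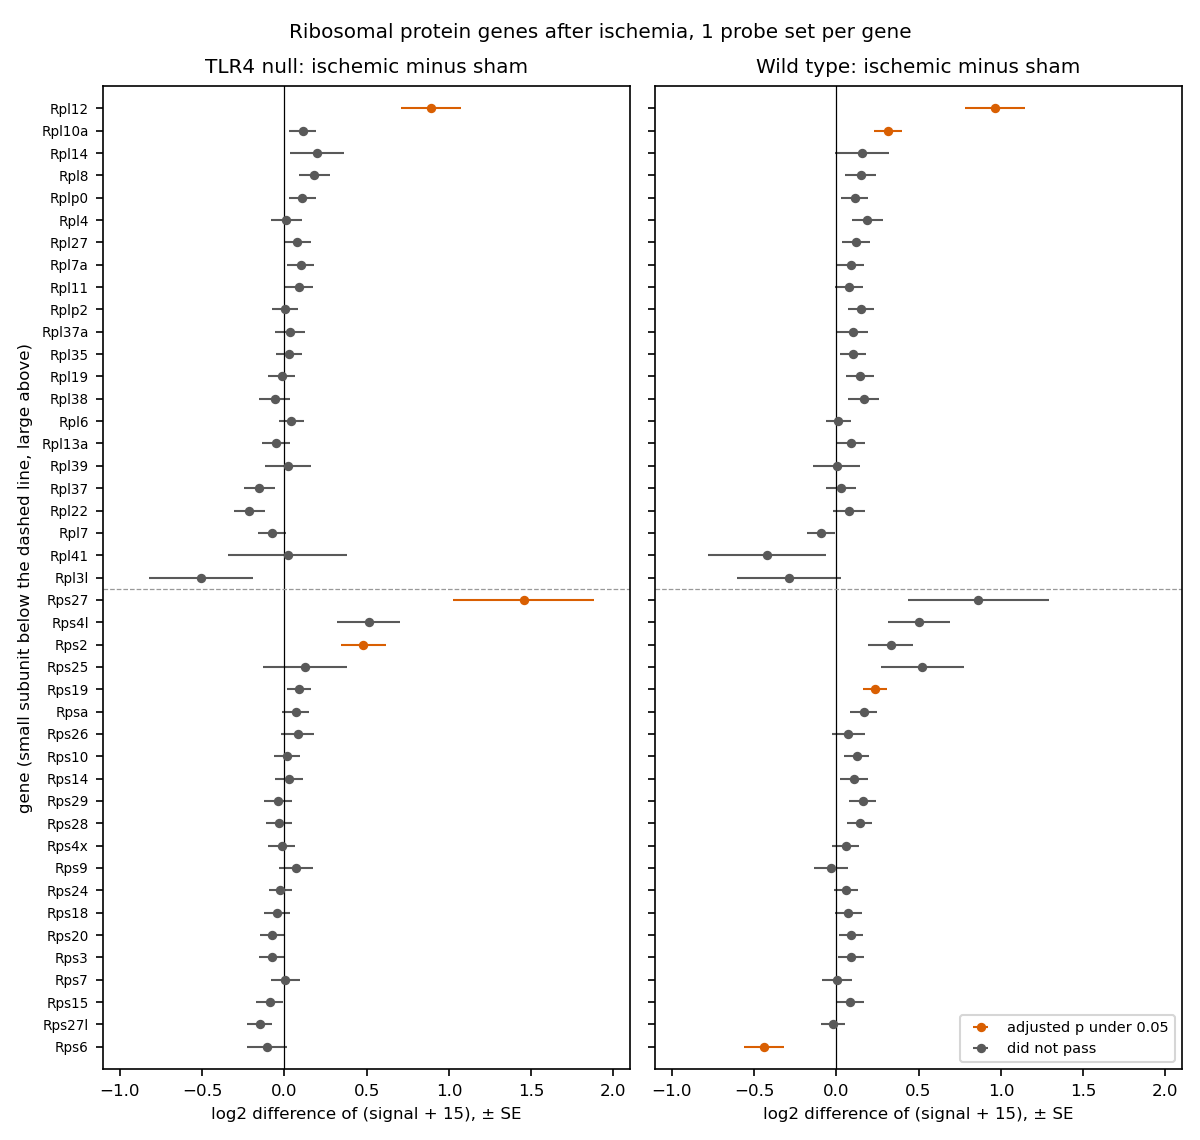
Log2 difference of ischemic minus sham (x axis, of signal + 15) with its standard error for the 43 ribosomal protein genes, TLR4 null on the left and WT on the right, large subunit above the dashed line. Orange marks an adjusted p under 0.05, which 3 genes reached in TLR4 null and 4 in WT kidneys, and most others lie close to 0.

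Among the large-subunit genes, the stalk that recruits translation factors was represented by Rplp0, Rplp2 and Rpl12. Rplp0, the protein that anchors the stalk to the ribosome, read 10853, 11866 and 11759 in TLR4 null ischemic kidneys, against 10400.3, 11208 and 10388 in TLR4 null sham kidneys. It read 11527, 11594 and 10794 in WT ischemic kidneys, against 9299.9, 11092 and 11044 in WT sham kidneys. Ischemic and sham arrays overlapped in both genotypes, and WT sham replicate 1 was the lowest of the 12. The log2 difference was 0.11 ± 0.082 (SE) in TLR4 null and 0.11 ± 0.082 in WT kidneys (limma, adjusted p = 0.411 and 0.381). Rplp2, one of the acidic stalk proteins that bind to Rplp0, differed by 0.0030 in TLR4 null and 0.15 in WT kidneys, with 95% intervals from -0.17 to 0.17 and from -0.020 to 0.32.

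Rpl12, which sits at the base of the stalk, was the member that rose in both genotypes. Its probe set, 1435655_at, read 189.9, 229.7 and 207 in TLR4 null ischemic kidneys, against 103, 97.9 and 116 in TLR4 null sham kidneys. It read 219, 186 and 264 in WT ischemic kidneys, against 142, 86.1 and 96.5 in WT sham kidneys. Every ischemic array lay above every sham array of its genotype. On the log2 scale it differed by 0.89 ± 0.18 in TLR4 null (limma, adjusted p = 0.00254) and 0.96 ± 0.18 in WT kidneys (adjusted p = 0.00153). Both calls held in each of 12 other processing settings and with each of the 12 arrays left out. The probe set is dim, and the annotation does not say which part of the transcript it reads.

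Rpl10a, the protein of the mobile L1 stalk near the exit site for spent tRNA, rose in WT kidneys by a small and tightly measured amount. It read 7831, 8653 and 7417 in TLR4 null ischemic kidneys, against 6851, 7813 and 7451 in TLR4 null sham kidneys. It read 8878, 8776 and 8234 in WT ischemic kidneys, against 6392, 7439 and 6990.3 in WT sham kidneys. The WT groups did not overlap and the TLR4 null groups did. Its log2 difference was 0.11 ± 0.084 in TLR4 null (limma, adjusted p = 0.408) and 0.32 ± 0.084 in WT kidneys (adjusted p = 0.0151). The WT call was lost without WT ischemic replicate 1 or WT sham replicate 1, where adjusted p reached 0.0749, and also with median scaling and with eBayes without the trend. The other large-subunit genes did not pass the test in either genotype. Among them was Rpl38, known from mouse skeletal patterning (-0.057 in TLR4 null and 0.17 in WT kidneys). Rpl14, dim with a mean signal of 107, was another (0.20 in TLR4 null and 0.16 in WT kidneys).

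Rps6, the small-subunit protein phosphorylated by S6 kinases downstream of mTORC1, was the 1 member that fell in the fit with 1 probe set per gene. It read 321, 308 and 315 in TLR4 null ischemic kidneys, against 297, 316 and 418 in TLR4 null sham kidneys. It read 292, 328 and 315 in WT ischemic kidneys, against 421, 432 and 428 in WT sham kidneys. The 3 WT sham arrays were the highest of the 12, together with replicate 3 of the TLR4 null sham group, and the other sham arrays lay among the ischemic ones. The log2 difference was -0.10 ± 0.12 in TLR4 null (limma, adjusted p = 0.613) and -0.44 ± 0.12 in WT kidneys (adjusted p = 0.0192). The WT call was lost without WT ischemic replicate 1 and without each of the 3 WT sham arrays in turn, where adjusted p reached 0.075, and also with median scaling. Rps6 had 1 probe set past the filter, 1416142_at, with a signal far below that of most members. A second probe set, 1453466_at, averaged 18.8 and did not pass.

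Rps2, a protein near the mRNA entry channel, rose in TLR4 null kidneys. It read 9298, 7308 and 9161 in TLR4 null ischemic kidneys, against 5817, 6543 and 6037 in TLR4 null sham kidneys. It read 6871, 9737 and 6859 in WT ischemic kidneys, against 5358, 6989 and 6146 in WT sham kidneys. The TLR4 null groups did not overlap, while 2 of the 3 WT ischemic arrays lay below the highest WT sham array. On the log2 scale it differed by 0.48 ± 0.14 in TLR4 null (limma, adjusted p = 0.0206) and 0.33 ± 0.14 in WT kidneys (adjusted p = 0.107). The TLR4 null call was lost without replicate 1 or 3 of the TLR4 null ischemic group and without replicate 1 or 3 of the TLR4 null sham group, where adjusted p reached 0.079, and also with median scaling and with eBayes without the trend. The probe set, 1431766_x_at, carries the suffix for probes that can match several transcripts, so near-identical copies are not told apart from Rps2 here.

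Rps27, a small-subunit protein with a zinc finger, had the largest rise among the members in TLR4 null kidneys and also the widest spread. It read 478, 578 and 526 in TLR4 null ischemic kidneys, against 121, 136 and 362 in TLR4 null sham kidneys. It read 510.2, 158 and 534 in WT ischemic kidneys, against 116, 288 and 194 in WT sham kidneys. The TLR4 null groups did not overlap, but replicate 3 of the TLR4 null sham group stood well above the other TLR4 null sham arrays, and WT ischemic replicate 2 lay among the sham arrays. Its log2 difference was 1.45 ± 0.43 in TLR4 null (limma, adjusted p = 0.0238) and 0.86 ± 0.43 in WT kidneys (adjusted p = 0.184). The TLR4 null call was lost without TLR4 null ischemic replicate 2 and without TLR4 null sham replicate 1 or 2, where adjusted p reached 0.102, and also with array weights and with eBayes without the trend. In WT kidneys the rise passed without WT ischemic replicate 2 (limma, adjusted p = 0.0181). The Rps27 probe set is dim, with a mean signal of 333 over the 12 arrays.

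Rps19, whose human form is mutated in Diamond-Blackfan anemia, rose in WT kidneys. It read 4634, 5309.6 and 4911 in TLR4 null ischemic kidneys, against 4494, 4813 and 4635 in TLR4 null sham kidneys. It read 5282, 5201 and 5029 in WT ischemic kidneys, against 4323, 4485 and 4359.7 in WT sham kidneys. The WT groups did not overlap, and the TLR4 null groups did. The log2 difference was 0.090 ± 0.071 in TLR4 null (limma, adjusted p = 0.433) and 0.24 ± 0.071 in WT kidneys (adjusted p = 0.0299). The WT call was lost without replicate 1 or 2 of the WT ischemic group and without each of the 3 WT sham arrays in turn, where adjusted p reached 0.0952, and also with median scaling and with eBayes without the trend.

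Other small-subunit genes gave no call. Rpsa, which also serves as a laminin receptor outside the ribosome, differed by 0.070 in TLR4 null and 0.17 in WT kidneys, and Rps3, which lines the mRNA entry channel, by -0.074 in TLR4 null and 0.087 in WT kidneys. Rps20, a protein of the small subunit's head, differed by -0.073 in TLR4 null and 0.091 in WT kidneys. The 3 Rps3 probe sets ran from -0.41 to 0.23 in TLR4 null and from -0.42 to 0.32 in WT kidneys. The 3 of Rps20 ran from -0.43 to -0.073 in TLR4 null and from 0.080 to 0.20 in WT kidneys. None of them was called. Rps25, needed for translation from some viral internal entry sites, differed by 0.13 ± 0.25 in TLR4 null and 0.52 ± 0.25 in WT kidneys. The Rps25 probe set is dim, with a mean signal of 191. Rps28 and Rps29, with Rpl38, had the brightest probe sets of the set, which gives no order of their mRNAs. Rps29 differed by -0.038 in TLR4 null and 0.16 in WT kidneys, and Rps28 by -0.033 in TLR4 null and 0.14 in WT kidneys.

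**Figure D2:**
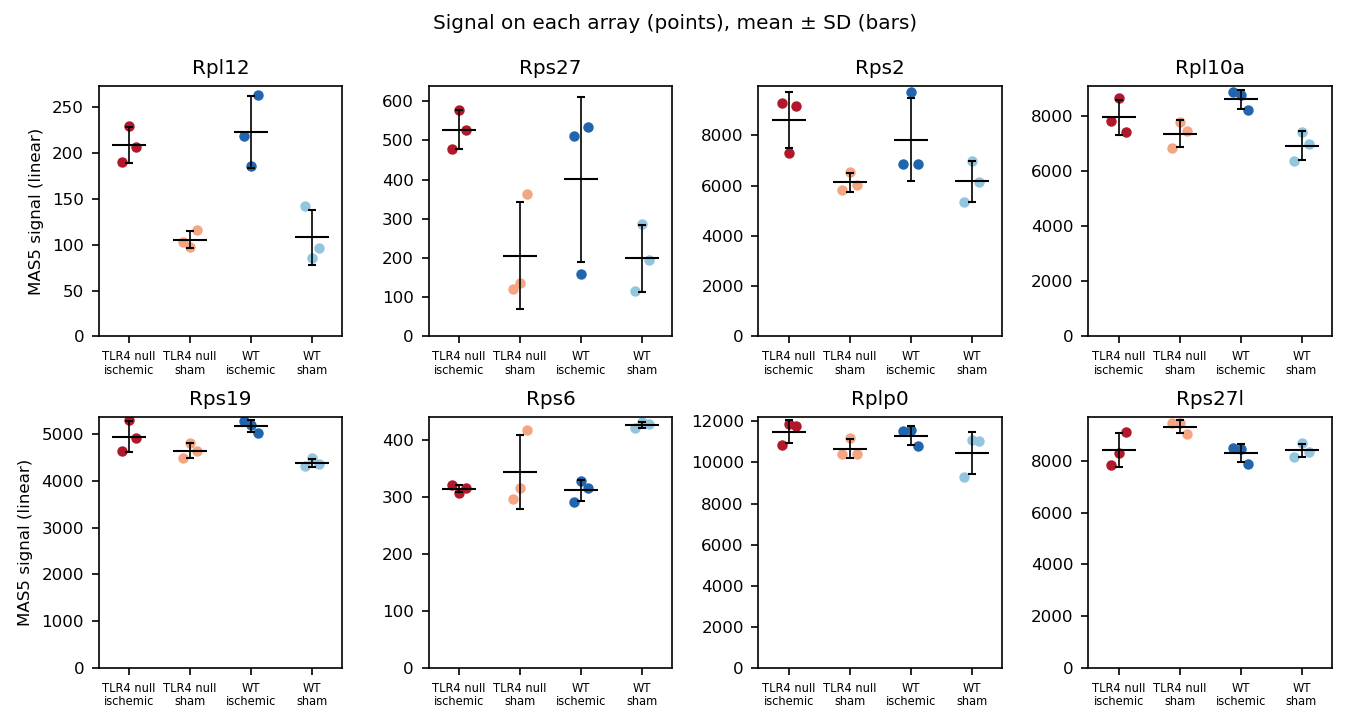
Linear MAS5 signal (y axis, from 0) on each of the 12 arrays for 8 members, by group, with the mean and SD (n = 3). Rpl12 lies higher in all 6 ischemic arrays than in the sham arrays of the same genotype, whereas ischemic and sham arrays of Rplp0 and Rps27l overlap.

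Groups that did not overlap were also counted without a model. In TLR4 null kidneys all 3 ischemic arrays lay above all 3 sham arrays for 5 of 43 members and below them for 2 (Rpl22 and Rpl3l), against 13.9% and 20.1% of all genes. In WT kidneys the counts were 9 above and 1 below (Rps6), against 15.6% and 23.7% of all genes. The 9 in WT kidneys included Rpl4, Rpl19, Rpl27, Rplp2, Rps10 and Rps25, none of which passed the test.

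Some members have a paralog or near-copy. Rps27l, a paralog of Rps27 that p53 can induce, read 7824, 8312 and 9126 in TLR4 null ischemic kidneys, against 9482, 9472 and 9028 in TLR4 null sham kidneys. It read 8512, 8477 and 7892 in WT ischemic kidneys, against 8159.8, 8687 and 8363 in WT sham kidneys. Its log2 difference was -0.15 ± 0.074 in TLR4 null (limma, adjusted p = 0.178) and -0.019 ± 0.074 in WT kidneys (adjusted p = 0.891). The 3 Rps27l probe sets ran from -0.16 to -0.14 in TLR4 null and from -0.037 to -0.019 in WT kidneys, close to one another. All 3 carry a suffix that marks probes shared between transcripts.

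Rps4x, the X-linked S4 gene, differed by -0.015 in TLR4 null and 0.057 in WT kidneys. Its paralog Rps4l read 427, 323 and 303 in TLR4 null ischemic kidneys, against 207, 248 and 266 in TLR4 null sham kidneys. It read 281, 264 and 354 in WT ischemic kidneys, against 171, 177 and 286 in WT sham kidneys. Its log2 difference was 0.51 ± 0.19 in TLR4 null and 0.50 ± 0.19 in WT kidneys, and neither passed (limma, adjusted p = 0.0688 and 0.0784). Rpl3l, which replaces Rpl3 in striated muscle, was dim, with signals from 19.6 to 93.4 over the 12 arrays and differences of -0.51 ± 0.32 in TLR4 null and -0.29 ± 0.32 in WT kidneys. Rpl39, dim with a mean signal of 267, differed by 0.022 in TLR4 null and 0.0014 in WT kidneys. Its testis-expressed paralog Rpl39l averaged 20.7 and did not pass the filter. Rps16 did not pass either, since its only probe set averaged 1.92. Rpl7 and Rpl7a, unrelated proteins with like names, differed by -0.076 and 0.099 in TLR4 null kidneys and by -0.093 and 0.087 in WT kidneys.

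Several genes were read by more than 1 probe set, and bright and dim probe sets of the same gene disagreed. Mean signals fell into separate ranges, with 68 probe sets at 1394 or more and 21 of those that passed at 495.1 or less. The split at 1000 was chosen after the values were seen. In the fit of all 89 probe sets 8 rose and 1 fell in TLR4 null kidneys, against 8.5% and 8.24% of all 30304, and 5 rose and 1 fell in WT kidneys, against 7.71% and 7.91%. In that fit 7 of the 21 dim probe sets rose in TLR4 null kidneys and none fell, against 7.44% and 6.26% of all probe sets of that brightness. Of the 68 bright probe sets 1 rose and 1 fell in TLR4 null kidneys, against 16.4% and 23% of all bright probe sets. In WT kidneys 3 of 21 dim probe sets rose and 1 fell, against 6.55% and 6.59%, and 2 of 68 bright probe sets rose and none fell, against 16.3% and 17.8%.

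Rps9, a small-subunit protein near the mRNA entry channel, was one such gene. Its dim probe set 1426958_at read 125, 110.0 and 113 in TLR4 null ischemic kidneys, against 80.5, 62.4 and 55.6 in TLR4 null sham kidneys. It read 167, 102 and 153 in WT ischemic kidneys, against 63.8, 70.1 and 67.2 in WT sham kidneys. All ischemic arrays lay above all sham arrays, with log2 differences of 0.70 in TLR4 null (limma, adjusted p = 0.0236) and 0.90 in WT kidneys (adjusted p = 0.00552). The bright probe set 1433689_s_at differed by 0.070 in TLR4 null and -0.030 in WT kidneys, and another bright one, 1434624_x_at, by -0.35 in TLR4 null and 0.16 in WT kidneys, none of them called. Rps24 did likewise: the dim probe set 1455195_at rose by 0.48 in TLR4 null (limma, adjusted p = 0.021) and 0.54 in WT kidneys (adjusted p = 0.0109), while a second dim probe set and the 4 bright ones gave no call.

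Rpl41, which encodes one of the shortest known proteins, had probe sets that moved in opposite directions. The dim probe sets 1433530_at and 1454639_x_at both rose by 0.83 in TLR4 null kidneys (limma, adjusted p = 0.0073 and 0.0129), and differed by 0.41 and 0.49 in WT kidneys without passing. The bright probe set 1422623_x_at read 1986, 4769 and 6360.2 in TLR4 null ischemic kidneys, against 8208, 9817 and 7137 in TLR4 null sham kidneys. It fell by 1.08 there (limma, adjusted p = 0.0144), with TLR4 null ischemic replicate 1 far below the rest. The brightest Rpl41 probe set, 1455578_x_at, read 15195, 15545 and 3795 in WT ischemic kidneys, against 11246, 13809 and 13891 in WT sham kidneys, a difference of -0.42 (limma, adjusted p = 0.498 in the fit of all probe sets). WT ischemic replicate 3 lay far below the rest, and the other WT ischemic arrays lay above all WT sham arrays. In TLR4 null kidneys the same probe set differed by 0.020. Rpl37a had a dim probe set, 1416218_x_at, that rose by 0.44 in TLR4 null kidneys (limma, adjusted p = 0.0356), and its bright probe sets differed by -0.022 and 0.033 there.

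**Figure D3:**
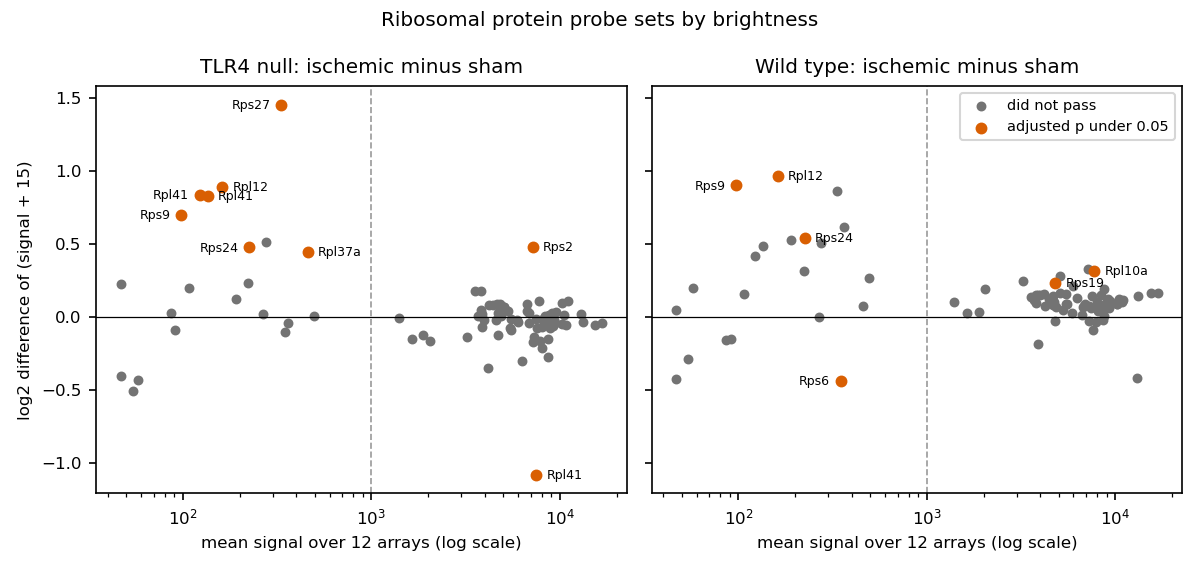
Each of the 89 probe sets by mean signal over 12 arrays (x axis, log scale) and log2 difference of ischemic minus sham (y axis), TLR4 null on the left and WT on the right. Of the called probe sets, 7 of 9 in TLR4 null and 4 of 6 in WT kidneys lie among the dim ones left of the dashed line at 1000.

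Members shared small shifts from array to array. The median deviation of the 68 bright probe sets from their own means over 12 arrays was -0.097, 0.026 and 0.019 in TLR4 null ischemic kidneys, against 0.0022, 0.041 and -0.046 in TLR4 null sham kidneys. It was 0.082, 0.096 and 0.015 in WT ischemic kidneys, against -0.15, 0.036 and -0.013 in WT sham kidneys. WT sham replicate 1 and TLR4 null ischemic replicate 1 were the lowest of the 12, and the 3526 other bright probe sets of WT sham replicate 1 had a median deviation of -0.0012. Without WT sham replicate 1 the median over the 43 genes in WT kidneys was 0.036, with 29 above 0, and only Rpl12 was called. With quantile normalization the median was 0.071 in TLR4 null kidneys, with 31 above 0, and 0.018 in WT kidneys, with 25 above 0, so the order of the genotypes turned. With median scaling it was 0.039 in TLR4 null kidneys, with 28 above 0, and 0.19 in WT kidneys, with 39 above 0. The median in TLR4 null kidneys was -0.017 without TLR4 null ischemic replicate 2, -0.017 without TLR4 null ischemic replicate 3 and -0.018 without TLR4 null sham replicate 3, and 0.078 without TLR4 null ischemic replicate 1.

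**Figure D4:**
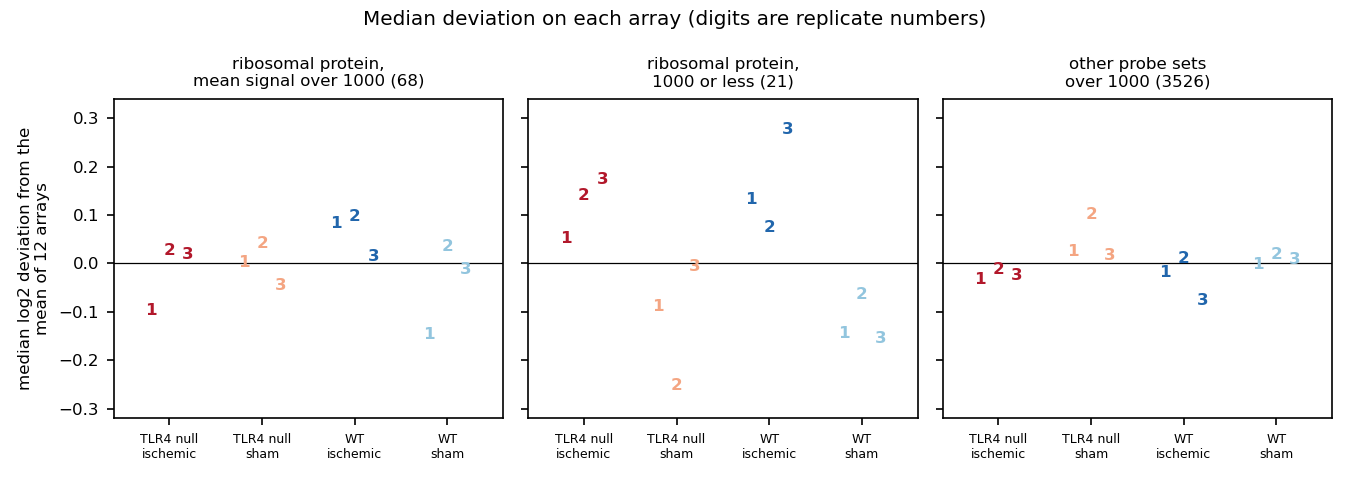
Median log2 deviation from the mean of the 12 arrays (y axis) on each array for the bright members (left), the dim members (middle) and the other bright probe sets (right), with digits for replicates. WT sham replicate 1 is the lowest array for the bright members at -0.15, and the dim members are above 0 in all 6 ischemic arrays and below 0 in all 6 sham arrays.

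Markers of other cell types moved with ischemia too, and their part in the members' values was not tested. The summed signal of the neutrophil markers S100a8 and S100a9 was 356.4 to 557.8 in TLR4 null ischemic kidneys, against 183.1 to 206.2 in TLR4 null sham kidneys. It was 719.4 to 1197 in WT ischemic kidneys, against 266.6 to 380.4 in WT sham kidneys. Both passed the test in both genotypes. The 2 adipocyte markers Fabp4 and Adipoq summed to between 2212 and 11499 with overlapping groups, and neither passed. Of the 3 macrophage markers Cd68 rose in both genotypes, while Csf1r fell in WT kidneys and Adgre1 did not pass. Their sum was 1270 to 1441 in TLR4 null ischemic kidneys, against 1385 to 1440.0 in TLR4 null sham kidneys, and 1280 to 1399 in WT ischemic kidneys, against 1551 to 1617 in WT sham kidneys. Of the 7 kidney markers Lrp2, the proximal-tubule receptor megalin, fell in both genotypes and the other 6 did not pass. In TLR4 null kidneys the adrenal markers Star and Cyp11b1 differed by 0.98 and -0.89 and both passed, and in WT kidneys the smooth muscle marker Tagln rose by 0.60. The other muscle markers and those of lymphocytes and erythroid cells did not pass.

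Between genotypes no ribosomal protein gene passed the test. In sham kidneys 0 of 43 members were called in TLR4 null minus WT, against 0.0908% of all genes higher and 0.224% lower, and in ischemic kidneys 0 of 43, against 0.14% higher and 0.517% lower. With 1 probe set per gene, the comparison of the TLR4 null response with the WT response called 0 of 14316 genes by limma. There 910 genes had an unadjusted p under 0.05, none of them a member. The smallest p among members belonged to Rpl22, an RNA-binding large-subunit protein, whose responses differed by -0.29 ± 0.14 (95% interval -0.58 to 0.0031; limma, adjusted p = 0.786). Rpl22 read 6234, 8115 and 8227 in TLR4 null ischemic kidneys, against 8343, 9191 and 8450.1 in TLR4 null sham kidneys, with TLR4 null ischemic replicate 1 the lowest of the 12. It read 8144, 7919.9 and 8476 in WT ischemic kidneys, against 7536, 8077 and 7682 in WT sham kidneys. The responses of Rps6 differed by 0.33 ± 0.17 (95% interval -0.035 to 0.70) and those of Rpl10a by -0.20 ± 0.12, so the calls in only 1 genotype are not shown to differ between genotypes. In the fit of all probe sets, 7 of 89 member probe sets had an unadjusted limma p under 0.05 for this comparison, and none was called. All 7 were among the 68 with a mean signal over 1000. The counts were 1887 of all 30304 probe sets and 339 of the 3594 over 1000.

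The intervals of the genotype differences were narrow for most members. In ischemic kidneys 38 of 43 (88.4%) lay within 0.5 of 0, against 46.1% of all genes, and in sham kidneys 37 (86%), against 48% of all genes. Among members over a signal of 1000 this held for 34 of 35 (97.1%) in each comparison. Of the other genes of that brightness it held for 85.6% in ischemic and 85.1% in sham kidneys. In sham kidneys Rps6 differed by -0.32 ± 0.12 between TLR4 null and WT (limma, adjusted p = 0.383), and Rps27l by 0.15 ± 0.074 (adjusted p = 0.575). Rpl3l differed by 0.64 ± 0.32 in sham kidneys (adjusted p = 0.574). With 1 probe set per gene, the smallest p values in ischemic kidneys belonged to Rps25 at -0.51 ± 0.25, Rps3 at -0.15 ± 0.079 and Rps20 at -0.13 ± 0.074 (adjusted p = 0.467, 0.509 and 0.518). In ischemic kidneys the median over the 43 genes was -0.064, with 30 below 0, and 0.0052 over all genes. With quantile normalization the median of the members was -0.0053. In the fit of all probe sets, 5 of 89 member probe sets had an unadjusted limma p under 0.05 in ischemic kidneys, against 3072 of all 30304. All 5 were among the 68 with a mean signal over 1000, against 608 of all 3594 of that brightness. Differences of the 89 ran from -1.15 to 0.55, and their lowest adjusted p was 0.101 (limma). All 3 sham values of Rps6 lay lower in TLR4 null than in WT kidneys. Groups did not overlap for 4 members higher and 1 lower in TLR4 null sham kidneys, against 8.12% and 8.62% of all genes, and for none higher and 4 lower in TLR4 null ischemic kidneys, against 7.03% and 7.63%.

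Genes that work beside the ribosomal proteins were counted by list, and each count stands against all genes, of which 9.86% rose and 11.7% fell in TLR4 null kidneys and 9.18% rose and 10.5% fell in WT kidneys. Of other genes whose mRNAs are of the TOP class, mostly translation factors and RNA-binding proteins, 20 were measured. The ribosomal protein gene Fau, whose symbol lies outside the rule for members, is among them. Of the 20, 1 rose and 1 fell in TLR4 null kidneys and 2 rose and none fell in WT kidneys, with medians of -0.0012 and 0.079. Hnrnpa1, an RNA-binding protein, rose by 0.51 in TLR4 null and 0.68 in WT kidneys. Pabpc1, the poly(A)-binding protein, differed by 0.14 in TLR4 null kidneys without passing and rose by 0.33 in WT kidneys. Eif4b, a helper of the helicase that opens mRNA leaders, fell by 0.32 in TLR4 null kidneys and differed by -0.097 in WT kidneys without passing.

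Among 38 measured factors that assemble ribosomes, 19 rose and 1 fell in TLR4 null kidneys and 18 rose and 1 fell in WT kidneys (all genes 9.86% and 11.7% in TLR4 null, 9.18% and 10.5% in WT kidneys), with medians of 0.42 and 0.37. Eif6, which keeps the large subunit from joining too early, rose by 1.20 in TLR4 null and 0.79 in WT kidneys (limma, adjusted p = 2.15e-06 and 0.000111). The nucleolar GTPases Gtpbp4 and Gnl3 rose by 0.95 and 1.27 in TLR4 null kidneys and by 1.32 and 1.01 in WT kidneys. Utp20, a factor of small-subunit rRNA processing, fell by 0.86 in TLR4 null kidneys and by 1.08 in WT kidneys.

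Mitochondrial ribosomal proteins, which serve the separate ribosome inside mitochondria, numbered 76. Of these, 1 rose and 8 fell in TLR4 null kidneys and 2 rose and 19 fell in WT kidneys (all genes 9.86% and 11.7% in TLR4 null, 9.18% and 10.5% in WT kidneys), with medians of -0.10 and -0.19. Mrps18b rose by 0.86 in TLR4 null and 0.61 in WT kidneys. Mrpl39 fell by 0.41 in TLR4 null and by 0.26 in WT kidneys, and Mrpl10 by 0.30 in TLR4 null and by 0.40 in WT kidneys. Mrpl51 fell by 0.41 in TLR4 null kidneys and differed by -0.16 in WT kidneys without passing.

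A list named for regulators of TOP translation and mTORC1 had 26 measured genes. It also held Myc, Mycn, Max, Mnt, Larp4b and Larp7, which were not shown here to regulate either. Of the 26, 4 rose and 6 fell in TLR4 null kidneys, and 3 rose and 6 fell in WT kidneys (all genes 9.86% and 11.7% in TLR4 null, 9.18% and 10.5% in WT kidneys), with medians of -0.042 and -0.082. The rises included Myc and Larp7 in both genotypes and Larp4b in TLR4 null kidneys. Myc, a transcription factor that drives ribosome production, rose by 2.55 in TLR4 null and 2.56 in WT kidneys. Eif4ebp1, the inhibitor of cap binding that mTORC1 switches off, rose by 2.21 in TLR4 null and 1.48 in WT kidneys. Mtor itself fell by 0.70 in TLR4 null kidneys and by 0.91 in WT kidneys, and Tia1, a stress-granule protein that binds TOP mRNAs, fell by 0.35 in TLR4 null and by 0.78 in WT kidneys. Of 4 measured S6 kinase and p90 S6 kinase genes, Rps6ka3 differed by 0.20 in TLR4 null kidneys without passing and rose by 0.34 in WT kidneys (limma, adjusted p = 0.0417), and the others did not pass.

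**Figure D5:**
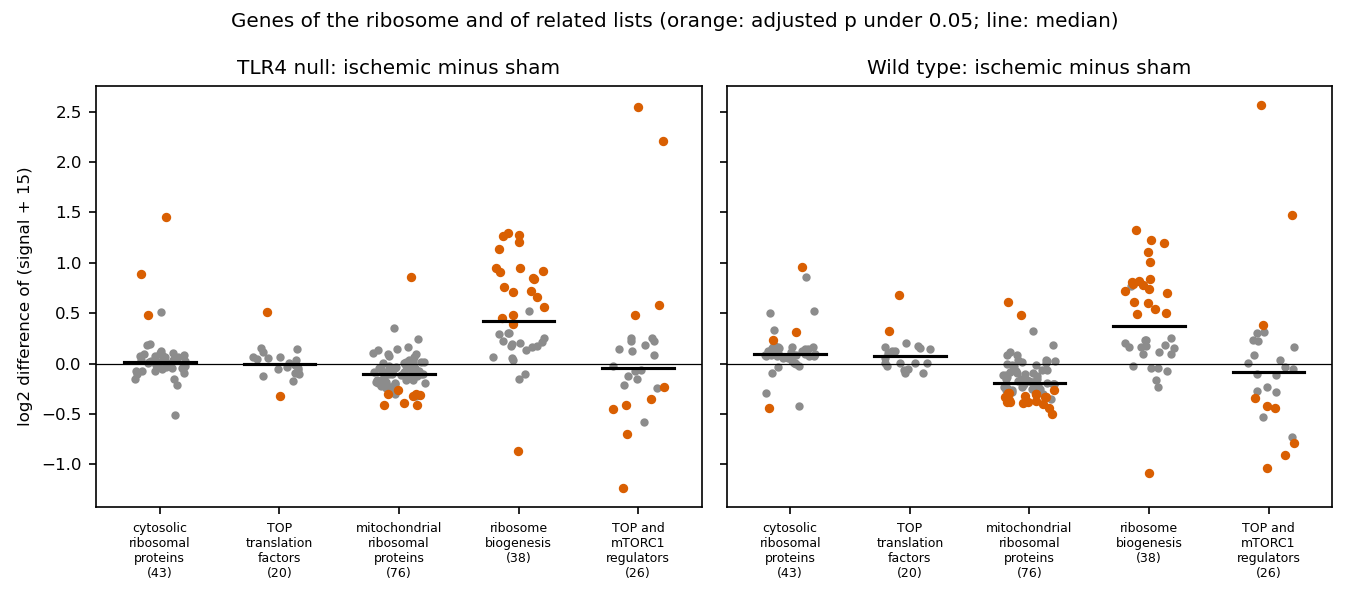
Log2 difference of ischemic minus sham (y axis) for each gene of the ribosomal protein set and of 4 related lists, TLR4 null on the left and WT on the right, with orange for an adjusted p under 0.05 and a bar at the median. The ribosomal proteins cluster near 0, and the ribosome biogenesis list has medians of 0.42 in TLR4 null and 0.37 in WT kidneys.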

How the data were processed

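MAS5 intensity (signal) per probe set is what the authors deposited, per the submitters' processing notes, for 45101 probe sets (64 of them controls) and 12 arrays. For the MAS5 version and scaling target, the sources used here give nothing. The values are linear, and every array has the same trimmed mean (250.0, middle 96%).

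Signals were used as log2(signal + 15). Tested probe sets had to exceed the 40th percentile of the array on 3 or more arrays. Of the probe sets, 34958 are annotated with 1 gene, 932 with several and 9147 with none, and the one with the highest mean stood for its gene. All genes were fitted with limma 3.58.1 in R 4.3.3 (lmFit, eBayes with trend, 4 group means, 8 residual degrees of freedom) in 5 comparisons, two-sided, adjusted by Benjamini and Hochberg and called under 0.05. A second fit took all probe sets. Steps were tested on simulated data. Figures were drawn with matplotlib 3.10.9 in Python 3.11.15.

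The members and lists were chosen with earlier results of these data known. By rule the text names called members (up to 8 a direction), the 3 smallest p of each genotype comparison with no call, the 3 brightest and 3 dimmest members, stalk proteins, Rpsa, Rps6, paralog pairs, and up to 4 genes per related list by smallest p. Members outside the rule (Rps9, Rps24, Rpl41, Rpl37a and those named for groups without overlap) were chosen after their values were seen. Fau, Mycn, Max, Mnt, Larp4b and Larp7 are named to state what the related lists hold. Rplp1 and several paralogs of the rule are not analysed here. Groups and replicates come from the labels, which call the arrays biological replicates. Deviations of same-numbered arrays from their group means correlated at -0.0622 to 0.104, so the numbers were not taken as pairs. Promoter sequences are from RefSeq (GRCm38.p6). Alternatives were other normalizations, pseudocounts, filters and probe set rules, array weights, eBayes without trend, a replicate block and leaving out each array.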

Additional observations from a re-analysis of the deposited data

Results flagged for a closer look

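A signal stood out in control probe sets that the comparisons of ribosomal protein genes do not use. The 3' probe set for 18S rRNA, the RNA of the small subunit, read 2287, 2646 and 1410.4 in TLR4 null ischemic kidneys, against 439, 304 and 476 in TLR4 null sham kidneys. The log2 difference was 2.31 ± 0.19 (SE, n = 3 each; limma, adjusted p = 1.08e-06). It read 540.1, 535 and 574 in WT ischemic kidneys, against 373, 406 and 392 in WT sham kidneys, a difference of 0.48 (adjusted p = 0.111). The TLR4 null response minus the WT response was 1.84 (adjusted p = 0.192), and TLR4 null minus WT in ischemic kidneys was 1.87 (adjusted p = 0.00109). The middle and 5' probe sets of the same rRNA differed by 0.18 and 0.15 in TLR4 null kidneys and by -0.091 and -0.014 in WT kidneys, and neither passed. The labels say that labelled cRNA was amplified from total RNA. Whether this signal is tied to any member's value was not tested. With 3 arrays a group, no test for a single array far from the others was made.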

How the results depend on the processing

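Precision rests on 3 arrays per group, and changes of dim probe sets are understated. The count of called members, 3 in TLR4 null and 4 in WT kidneys, moved by over 1.5 times under some settings. In TLR4 null kidneys it was 5 of 38 members without the _x_at and _s_at probe sets and 1 with eBayes without the trend. It was 1 of 35 with only probe sets over 1000 (a setting chosen after seeing the data). The fit of all probe sets called 9 probe sets of 7 genes in TLR4 null and 6 of 6 genes in WT kidneys. In WT kidneys the count of genes was 1 with each array scaled to the same median, 2 with eBayes without the trend and 2 with only probe sets over 1000. With 1 array left out the count ran from 1 to 4 in TLR4 null kidneys (1 without TLR4 null sham replicate 1) and from 1 to 5 in WT kidneys (1 without WT ischemic replicate 1 or WT sham replicate 1, 2 without WT sham replicate 2). The replicate block gave 3 in TLR4 null and 4 in WT kidneys, with the same genes. Some settings added calls. Without the _x_at and _s_at probe sets 5 of 38 members were called higher and 1 lower in WT kidneys, with Rps9 and Rps24 added. With the mean of probe sets 4 of 43 were called higher and 1 lower there, with Rps9 added. With only the arrays of the 2 groups compared, the WT counts were also 4 higher and 1 lower, with Rps25 added. In TLR4 null kidneys array weights called 3 members higher (Rpl12, Rps2 and Rps4l) and 1 lower (Rpl22). Rps4l was also called in both genotypes without WT sham replicate 3. Over all genes median scaling called 1100 higher and 920 lower in TLR4 null and 1241 higher and 548 lower in WT kidneys, against 1412 and 1676 in TLR4 null and 1314 and 1501 in WT kidneys as deposited. Over the 43 members, the median of the TLR4 null response minus the WT response was -0.079, -0.15 with median scaling and 0.024 with quantile normalization. The median of TLR4 null minus WT in sham kidneys was 0.028, and -0.030 with quantile normalization. No member was called between genotypes, or between their responses, under any setting. The cause of these shifts was not tested.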

Other observations

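On each array the 21 dim probe sets of the members had a median deviation from their own means of 0.051, 0.14 and 0.17 in TLR4 null ischemic kidneys, against -0.088, -0.25 and -0.0059 in TLR4 null sham kidneys. It was 0.13, 0.073 and 0.28 in WT ischemic kidneys, against -0.14, -0.065 and -0.16 in WT sham kidneys. Ischemic and sham arrays did not overlap in either genotype, a pattern seen after the split at 1000 was chosen from the data and given here with no test. The 21 include the dim probe sets called above, 7 in TLR4 null and 4 in WT kidneys. Over all probe sets that passed, the medians were 0.0055, -0.036 and 0.027 in TLR4 null ischemic kidneys, against 0.073, -0.033 and 0.037 in TLR4 null sham kidneys. They were -0.024, -0.017 and 0.0020 in WT ischemic kidneys, against 0.037, 0.035 and 0.055 in WT sham kidneys. Which parts of the transcripts the dim probe sets read is not given in the sources used here.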
